A study of Mus musculus with 40 samples.

Results

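The genes described here are those whose transcript levels rose and fell with that of Aqp2, the gene of the water channel aquaporin-2, from library to library within the same label. They were chosen from 16 RNA sequencing libraries of mpkCCD cells, a mouse collecting duct line kept by immortalization. The rule took log2(TPM + 1) of each gene, where TPM is a transcript abundance scaled to a fixed total per library and corrected for transcript length. It subtracted the mean of the libraries with the same label and run of library numbers, and correlated these residuals with those of Aqp2. Of 55414 genes in the table, 10559 averaged 5 TPM or more over the 16 libraries. Among these, 28 had a Pearson r of 0.7 or more and 162 had an r of -0.7 or less. These 28 positive and 162 negative members, 190 genes or 1.8% of those tested, all met the filter because it was set on the same 16 libraries. The balance of signs depended on the scale: with TPM rescaled by median ratios, 82 genes were positive and 63 negative. Of the 190 members, 89 (46.8%) passed the limit on that scale. The r values chose the genes, so they are given as a description and not as a test.

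The 16 libraries comprised 11 of control clones, which the labels describe as unmodified and wild type, and 5 labelled ATF1-KO. Control clones 1 to 5, ATF1-KO 1 to 5, control clones 6 to 8 and control clones 9 to 11 made up the 4 strata within which residuals were taken. The other 6 libraries in the table, 3 of the ATF1/CREB1-KO label and 3 of the ATF1/CREB1/CREM-KO label, were not used to choose members. In every group the cells were polarized on permeable supports and received 0.1 nM dDAVP, a vasopressin analogue, for 72 hours, in medium with dexamethasone. No library without dDAVP was analysed here. It is not stated whether knockout replicates came from different clones, nor whether runs of library numbers are batches, so spread between libraries may be clonal or technical. Sequencing depth is unknown because TPM does not keep it. Between 17296 and 20703 genes were above 0 in each of the 16 libraries.

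The set includes libraries labelled as knockouts, so it is not a set of unedited cells only. Atf1 transcript was at 37.8 to 49.0 TPM in control clones 1 to 5, and at 19.1, 25.01, 17.5, 33.5 and 37.8 TPM in ATF1-KO 1 to 5. All ATF1-KO values lay below the lowest of control clones 1 to 5, with ATF1-KO 5 just under it. Creb1 was at 4.98, 6.69 and 4.99 TPM in control clones 6 to 8 and at 3.86, 3.59 and 2.72 TPM in the libraries labelled ATF1/CREB1-KO, without overlap. Crem was not lower in the libraries labelled ATF1/CREB1/CREM-KO, at 26.0, 31.6 and 33.8 TPM, than in control clones 9 to 11, at 24.9, 19.98 and 23.1 TPM. In control clones 9 to 11 Creb1 was at 39.0, 38.2 and 35.9 TPM, and in ATF1/CREB1/CREM-KO it was at 18.6, 18.2 and 19.4 TPM, without overlap. Atf1 overlapped the controls of the same run in both of these labels: it was at 18.3, 23.7 and 15.1 TPM in ATF1/CREB1-KO against 23.3, 26.2 and 23.9 TPM, and at 23.7, 40.8 and 32.7 TPM in ATF1/CREB1/CREM-KO against 39.9, 39.8 and 40.5 TPM. Transcript levels do not show whether the protein is lost, and knockout groups are called by their labels.

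Aquaporin-2 is the vasopressin-regulated water channel of principal cells, the cells that take up water and sodium in the collecting duct. Vasopressin binds the V2 receptor, which raises cyclic AMP, and protein kinase A then moves aquaporin-2 to the apical membrane and increases transcription of its gene. CREB, ATF1 and CREM are related factors that bind the cyclic AMP response element (CRE), and their role in this regulation is the question of the series. Other factors, such as TFCP2L1, the GATA factors and ELF proteins, are known as regulators of collecting duct genes, and not all of them act in principal cells only.

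Of the 190 members, 141 matched a gene in a table of RefSeq promoter sequences (GRCm38.p6) by symbol, 20 positive and 121 negative. The 250 bases before the transcription start are shown for Aqp2, for 4 positive members and for Jpt1, the negative member with the strongest correlation, to let the reader compare their CRE letters. The genes shown were picked by hand, and all hold the core TGACG, which only 6 of the 20 positive members with a window do. The regions are chr15:99578806-99579055 (plus strand) for Aqp2, chrX:136270003-136270252 (plus) for Bex3, chr16:17759391-17759640 (plus) for Klhl22, chr1:161034916-161035165 (plus) for Gas5, chr1:118627695-118627944 (plus) for Tfcp2l1 and chr11:115514394-115514643 (minus) for Jpt1. Each run reads 5′ to 3′ and ends at the base before the start. Capitals mark the CRE, TGACGTCA, or its core, TGACG, on either strand, where the core also lies within the full CRE. Klhl22 and Gas5 have 2 starts in the table, and the window with more TGACG matches, or else the first listed, was printed.
Aqp2: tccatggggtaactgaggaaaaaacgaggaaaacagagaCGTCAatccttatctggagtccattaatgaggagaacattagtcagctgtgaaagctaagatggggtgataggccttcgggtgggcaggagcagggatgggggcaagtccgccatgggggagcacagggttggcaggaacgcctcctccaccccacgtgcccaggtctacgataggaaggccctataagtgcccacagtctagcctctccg
Bex3: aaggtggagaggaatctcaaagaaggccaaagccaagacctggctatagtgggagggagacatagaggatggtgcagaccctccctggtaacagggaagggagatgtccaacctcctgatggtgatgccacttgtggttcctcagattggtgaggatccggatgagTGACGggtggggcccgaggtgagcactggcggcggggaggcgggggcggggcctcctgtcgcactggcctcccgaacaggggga
Klhl22: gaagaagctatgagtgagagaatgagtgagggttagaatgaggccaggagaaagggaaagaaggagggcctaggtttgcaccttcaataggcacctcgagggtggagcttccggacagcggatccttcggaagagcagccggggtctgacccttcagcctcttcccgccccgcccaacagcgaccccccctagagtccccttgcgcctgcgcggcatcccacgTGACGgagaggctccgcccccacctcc
Gas5: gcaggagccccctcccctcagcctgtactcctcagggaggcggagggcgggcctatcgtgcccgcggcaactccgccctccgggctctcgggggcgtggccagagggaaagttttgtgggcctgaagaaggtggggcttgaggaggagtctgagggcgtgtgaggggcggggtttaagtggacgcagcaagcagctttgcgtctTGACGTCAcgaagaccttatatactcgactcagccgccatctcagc
Tfcp2l1: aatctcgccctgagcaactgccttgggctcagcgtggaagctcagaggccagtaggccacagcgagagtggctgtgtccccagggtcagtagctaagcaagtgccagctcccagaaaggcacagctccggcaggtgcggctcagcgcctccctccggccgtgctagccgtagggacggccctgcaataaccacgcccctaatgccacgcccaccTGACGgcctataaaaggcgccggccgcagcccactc
Jpt1: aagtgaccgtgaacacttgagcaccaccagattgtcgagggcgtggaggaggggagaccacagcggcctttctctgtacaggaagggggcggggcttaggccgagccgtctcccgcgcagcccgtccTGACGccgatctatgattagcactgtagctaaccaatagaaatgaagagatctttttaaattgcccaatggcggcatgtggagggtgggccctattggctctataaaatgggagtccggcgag
The core on the opposite strand (CGTCA) began 211 bases before the start of Aqp2, whose window held no full CRE. The core lay 84 bases before the start of Bex3, 27 before Klhl22, 36 before Tfcp2l1 and 123 before Jpt1. Among the genes shown, Gas5 had the full CRE, 46 bases before its start.

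The letters were then counted in all windows of 250 bases, on both strands, with a gene counted if any of its windows held them. The full CRE was present in 1 of 20 positive members (5.0%) and 6 of 121 negative members (4.96%), beside 3.33% of 8237 tested genes with a window and 1.77% of all 27025 genes in the table. The core TGACG was present in 30.0% of positive and 26.4% of negative members, beside 32.7% of tested genes and 19.8% of all genes. The AP-1 letters TGANTCA were in 3 of 20 positive members (15.0%), 6.61% of negative members, 5.12% of tested genes and 7.82% of all genes. The CCAAT box was in 8 of 20 positive members and 42.1% of negative members, and in 41.3% of tested and 37.5% of all genes. The cell cycle homology letters TTTGAA were in 10.0% and 12.4%, beside 12.4% of tested and 18.3% of all genes. A match of letters is a description of the window and not evidence of binding.

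Aqp2 itself varied from 1.93-fold to 3.56-fold between libraries of the same stratum. It was at 1006, 1285, 1041, 798 and 1537 TPM in control clones 1 to 5, a mean of 1133 ± 284 TPM (SD, n = 5). In ATF1-KO 1 to 5 it was at 1773, 1199, 2351, 1084 and 2123 TPM, a mean of 1706 ± 556 TPM (SD, n = 5). Control clones 6 to 8 had 855, 379 and 1029 TPM, and control clones 9 to 11 had 1627, 641 and 2279 TPM. The highest library exceeded the lowest 1.93-fold, 2.17-fold, 2.71-fold and 3.56-fold in these strata. The 3 strata of control clones overlapped in range, as did ATF1-KO with control clones 1 to 5 and 9 to 11, but every ATF1-KO library was above control clones 6 to 8. Control clones 10 and 7 lay farthest from their stratum means, at -1.06 and -0.87 on the log2 scale, and together they held 42% of the sum of squares of the Aqp2 residuals. In the libraries outside the rule, Aqp2 was at 637, 492 and 508 TPM in ATF1/CREB1-KO and at 15.1, 16.1 and 15.3 TPM in ATF1/CREB1/CREM-KO.

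**Figure D1:**
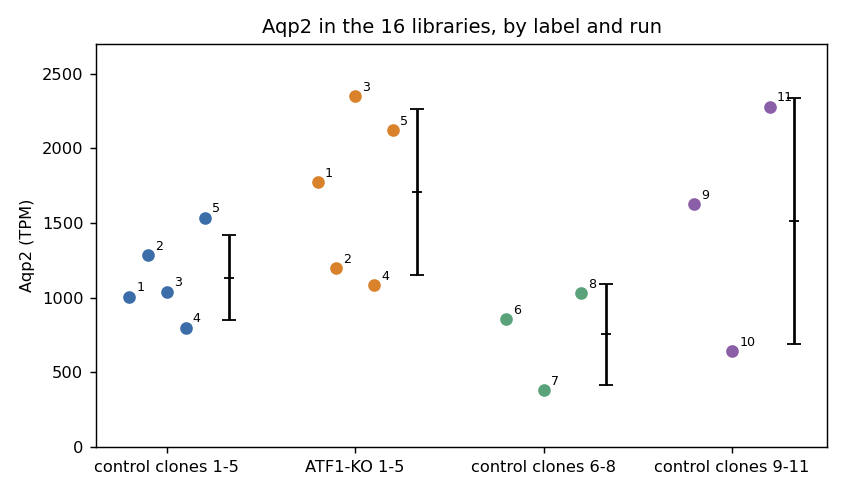
Aqp2 level in TPM (vertical axis) in each of the 16 libraries used by the rule, by stratum (horizontal axis); numbers are replicate numbers, and bars give the stratum mean ± SD. Control clone 7 (379 TPM) and control clone 10 (641 TPM) are the lowest libraries, and each lies below the other 2 of its stratum.

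Among positive members, the transcription factor Tfcp2l1, a regulator of collecting duct cell identity, had an r of 0.74 with Aqp2. Its level was 72.7, 73.5, 57.5, 87.7 and 87.6 TPM in control clones 1 to 5 and 86.1, 83.6, 96.6, 73.0 and 84.6 TPM in ATF1-KO 1 to 5. It was at 27.4, 21.9 and 30.8 TPM in control clones 6 to 8 and at 142, 94.7 and 151 TPM in control clones 9 to 11. Control clones 7 and 10, the lowest for Aqp2 in their strata, were also the lowest there for Tfcp2l1, whereas in control clones 1 to 5 clone 4, the lowest for Aqp2, was the highest for Tfcp2l1. Without clones 7 and 10, its r was 0.41. Cebpd, the gene of the leucine zipper factor C/EBP delta, followed Aqp2 with a steeper slope, 0.95 ± 0.235 (SE) log2 units per log2 unit of Aqp2. Its level was 7.35, 8.52, 4.03, 11.8 and 15.6 TPM in control clones 1 to 5 and 2.99, 7.72, 13.1, 4.67 and 9.67 TPM in ATF1-KO 1 to 5. Control clones 6 to 8 had 30.7, 10.8 and 30.0 TPM, and control clones 9 to 11 had 25.8, 6.86 and 30.0 TPM. Clones 7 and 10 were again the low libraries of their strata for Cebpd, and its r of 0.735 was 0.41 without them.

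Nedd4l, the gene of a ubiquitin ligase that removes the epithelial sodium channel from the membrane, had an r of 0.79. It was at 133, 132, 130, 99.5 and 127 TPM in control clones 1 to 5, at 117 to 124 TPM in ATF1-KO 1 to 5, at 26.7, 22.99 and 27.8 TPM in control clones 6 to 8, and at 177, 122 and 179 TPM in control clones 9 to 11. The ATF1-KO libraries varied little for Nedd4l while their Aqp2 levels spanned 2.17-fold. Without clones 7 and 10, its r was 0.48. Nedd4l is also on the list of aquaporin-2 trafficking genes and on that of steroid-responsive genes, and it was the only member on either.

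The positive member with the strongest correlation was Bex3, which encodes a small adaptor protein of neurotrophin receptor signalling (r = 0.84). It was at 668, 725, 641, 588 and 750 TPM in control clones 1 to 5 and at 627, 688, 685, 586 and 724 TPM in ATF1-KO 1 to 5. Control clones 6 to 8 had 2435, 2200 and 2488 TPM and control clones 9 to 11 had 872, 726 and 942 TPM. Within each stratum of control clones, the lowest library for Aqp2 was the lowest for Bex3 and the highest for Aqp2 was the highest for Bex3. Between strata the order differed, since control clones 6 to 8 had the highest Bex3 and the lowest mean Aqp2. The slope was 0.19 ± 0.04 (SE), so Bex3 moved by much less than Aqp2, and r was 0.76 without clones 7 and 10.

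Gmds encodes the enzyme that starts GDP-fucose synthesis, and Klhl22 an adaptor of a cullin-3 ubiquitin ligase. Gmds (r = 0.83) stayed between 152 and 159 TPM in control clones 1 to 5, ranged from 105 to 168 TPM in ATF1-KO 1 to 5, and was at 59.5, 51.0 and 66.5 TPM in control clones 6 to 8 and 228, 162 and 244 TPM in control clones 9 to 11. Klhl22 (r = 0.82) was at 57.3, 74.6, 76.2, 72.5 and 87.9 TPM in control clones 1 to 5 and 74.7, 48.8, 83.5, 57.2 and 74.4 TPM in ATF1-KO 1 to 5. It was at 15.4, 13.7 and 17.4 TPM in control clones 6 to 8 and 75.3, 50.5 and 78.0 TPM in control clones 9 to 11. ATF1-KO 2 was the lowest of its stratum for both genes and had the second lowest Aqp2 there, and for Klhl22 r was 0.78 without clones 7 and 10. Klhl22, Bex3 and Adgrg3, an adhesion receptor gene (r = 0.74, and 0.76 without them), were the 3 positive members that stayed at 0.7 or more without those clones.

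Gas5, a noncoding host transcript of small nucleolar RNAs, had an r of 0.735. It was at 181, 210, 232, 220 and 246 TPM in control clones 1 to 5, at 240, 201, 288, 218 and 231 TPM in ATF1-KO 1 to 5, at 799, 716 and 884 TPM in control clones 6 to 8 and at 253, 225 and 288 TPM in control clones 9 to 11. Like Bex3, it was higher in control clones 6 to 8 than in any other control clone, and within those strata it was lowest in clones 7 and 10. The other positive members with the largest smallest r over the libraries left out in turn were Slc25a39, the mitochondrial glutathione carrier (r = 0.76), Osgin1, an oxidative stress response gene (r = 0.77), Akr1c19, an aldo-keto reductase gene (r = 0.76), Fam3d, which encodes a secreted protein (r = 0.74), the predicted gene Gm32856 (r = 0.76) and the pseudogene Itpa-ps1 (r = 0.80). Without clones 7 and 10 these values were 0.65 for Slc25a39, 0.46 for Osgin1 and for Akr1c19, 0.44 for Fam3d, 0.55 for Gm32856 and 0.57 for Itpa-ps1. Reads of Itpa-ps1 could be shared with its parent gene, so its level is uncertain. Slc25a39 had the shallowest slope of all positive members, 0.09 ± 0.04 (SE), from a range of 271 to 417 TPM outside control clones 6 to 8.

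**Figure D2:**
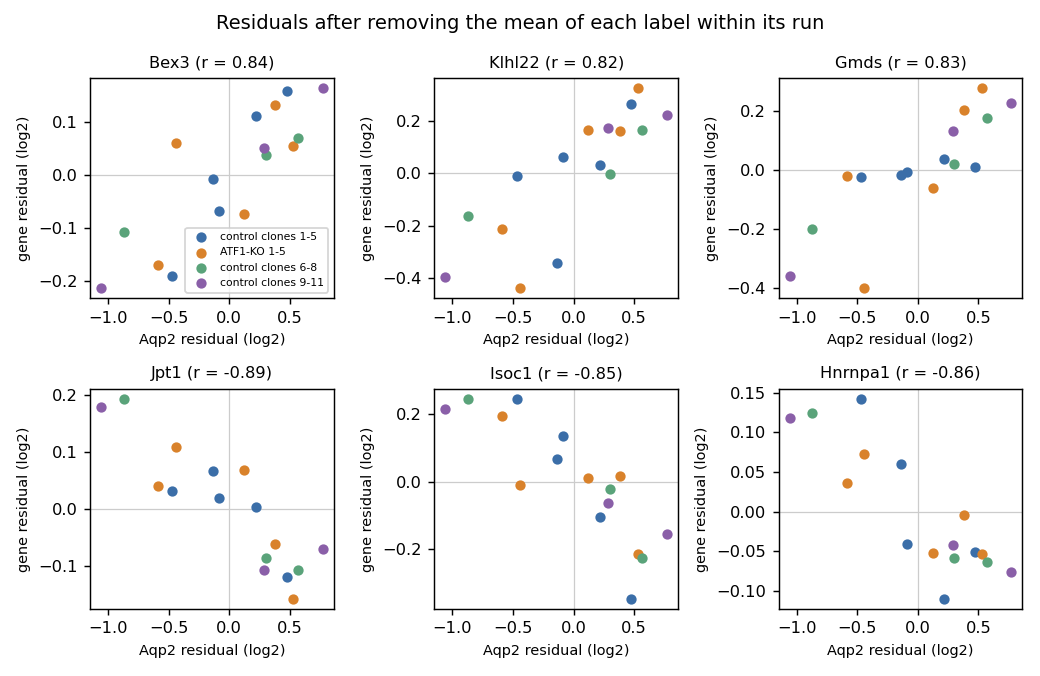
Residual of log2(TPM + 1) of 3 positive (upper row) and 3 negative members (lower row) on the vertical axis against that of Aqp2 on the horizontal axis, 1 point per library and 1 colour per stratum. Control clones 7 and 10 are the leftmost points of every panel, at -0.87 and -1.06 for Aqp2.

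The negative member with the strongest correlation was Jpt1 (r = -0.89), which encodes a microtubule-associated protein. It was at 522, 500, 505, 509 and 458 TPM in control clones 1 to 5 and at 558, 573, 476, 547 and 509 TPM in ATF1-KO 1 to 5. Control clones 6 to 8 had 241, 293 and 238 TPM, and control clones 9 to 11 had 356, 435 and 366 TPM. The library with the most Aqp2 in control clones 1 to 5, in ATF1-KO and in control clones 6 to 8 had the least Jpt1, and clones 7 and 10 had the most Jpt1 of their strata. The whole range within a stratum was small against that of Aqp2: the slope was -0.175 ± 0.04 (SE), and r was -0.73 without clones 7 and 10.

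Hnrnpa1 (r = -0.86) encodes an RNA-binding protein of splicing and has near-identical pseudogenes that could share its reads. It was at 226, 201, 211, 240 and 210 TPM in control clones 1 to 5 and between 196 and 214 TPM in ATF1-KO 1 to 5. It was at 85.4, 97.1 and 85.1 TPM in control clones 6 to 8 and at 224, 250 and 219 TPM in control clones 9 to 11. The highest Hnrnpa1 of each control stratum was in the library with the lowest Aqp2. Isoc1 (r = -0.85), the gene of an isochorismatase domain protein, was at 67.9, 60.1, 71.1, 76.8 and 50.7 TPM in control clones 1 to 5, at 48.4 to 64.6 TPM in ATF1-KO 1 to 5, at 16.2, 19.6 and 13.9 TPM in control clones 6 to 8 and at 57.2, 69.7 and 53.6 TPM in control clones 9 to 11. In all 4 strata the library with the lowest Aqp2 had the highest Isoc1. Its r was -0.805 without clones 7 and 10, and -0.82 for Wdr7, a WD repeat gene with an r of -0.84 over all libraries. Under median-ratio scaling, r was -0.61 for Hnrnpa1, -0.78 for Isoc1 and -0.69 for Wdr7.

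The remaining negative members named by the same rule were Gnpda2, a glucosamine-6-phosphate deaminase gene (r = -0.85), Fancg of the Fanconi anaemia DNA repair complex (r = -0.85), Abi2, an actin regulator (r = -0.86), Cenpi of the centromere (r = -0.85), the kinase gene Pask (r = -0.85), the Mediator subunit Med14 (r = -0.84), the spliceosome component Prpf6 (r = -0.83) and Gins1 of the replicative helicase (r = -0.82). Gnpda2 had the steepest slope of the 12 named, -0.44 ± 0.08 (SE), with 2.49, 5.94 and 2.78 TPM in control clones 6 to 8 and 14.3, 19.2 and 12.8 TPM in control clones 9 to 11. Prpf6 had the shallowest, -0.08 ± 0.04 (SE), and stayed between 70.3 and 78.3 TPM in control clones 1 to 5 and ATF1-KO. Under median-ratio scaling, the r of Prpf6 was -0.57. Clones 7 and 10 were the highest of their strata for each of these genes.

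Other negative members are named here after their values were seen, as single genes and not as a group. Racgap1 (r = -0.74) acts in cytokinesis, Kif18b (-0.80) on mitotic microtubules, Ska1 (-0.74) and Spc24 (-0.78) at the kinetochore, Haspin (-0.71) as a mitotic histone kinase, and Prim2 (-0.77), Gmnn (-0.74) and Mcm8 (-0.73) in DNA replication. Jun (-0.83), a subunit of AP-1, Vhl (-0.72), the ubiquitin ligase subunit that marks hypoxia-inducible factors, and Hdac3 (-0.72) were negative members too. Jun was at 34.2, 55.2 and 35.5 TPM in control clones 9 to 11 and at 8.52, 11.8 and 7.83 TPM in control clones 6 to 8, so clones 7 and 10 were high in both strata. Positive members outside the named 12 included Csf3 (0.71), which encodes the cytokine G-CSF, F3 (0.71), which encodes tissue factor, Camk2d (0.72), a calcium/calmodulin kinase gene, and Blnk (0.76), an adaptor gene best known in B cells. Without clones 7 and 10, r was 0.43 for Csf3, 0.21 for F3, 0.47 for Camk2d and 0.25 for Blnk. The r of Blnk was 0.93 in the 11 control clones and -0.88 in the 5 ATF1-KO libraries. Its level stayed between 87.1 and 93.5 TPM in ATF1-KO, and 5 libraries are too few to show a change of sign.

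**Figure D3:**
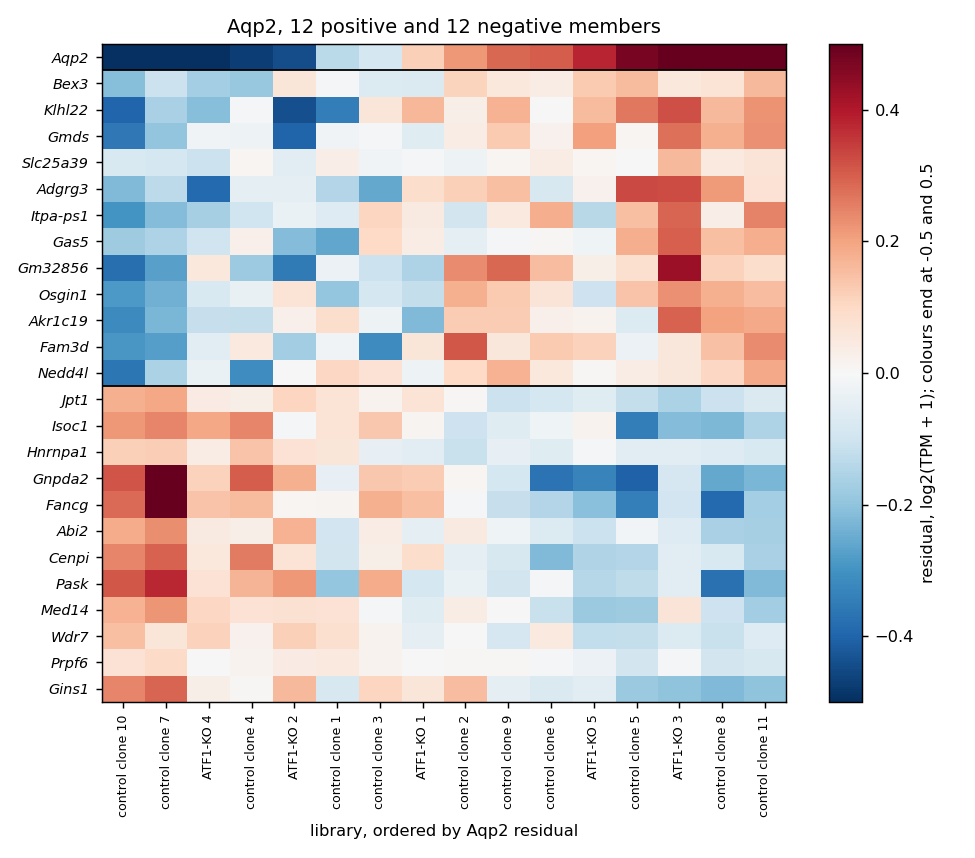
Residuals of log2(TPM + 1) of Aqp2 and the 24 named members (rows) in the 16 libraries (columns, ordered by the Aqp2 residual); red is above and blue below the stratum mean, with colours ending at -0.5 and 0.5. Control clones 10 and 7, on the left, are below their stratum mean for the 12 positive members and above it for the 12 negative members.

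As a group, the 28 positive members had a median level of 67.0 TPM, and the 162 negative members 41.8 TPM, beside 38.2 TPM for all tested genes. Of the positive members 23 were protein-coding, and of the negative 160. The median size of the slope was 0.26 log2 units per log2 unit of Aqp2 in positive and 0.20 in negative members, beside 0.07 for all tested genes, and all but Sh3gl2 (-1.54), an endophilin gene, had a slope of less than 1 in size. The genes just inside the limit were Tmem50b (0.7007) and Gm28959 (0.7059), and Slc9a3r2 (-0.7001) and Cdc23 (-0.7002). Just outside were Usp32 (0.6992) and Chchd10 (0.6962), and Mif4gd (-0.699) and Cacnb3 (-0.6988). At a limit of 0.8 there were 3 positive and 33 negative genes, at 0.6 there were 90 and 528, and at 0.9 none of either sign. The limma slope fit over all 10559 genes, the same contrast as the rule, called 0% of genes at an adjusted p under 0.05, while 902 (8.54%) had an unadjusted p under 0.05, and nothing is read from it.

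The r values leaned on few libraries. The sign of the residual correlation was the same in all 4 strata for 24 of 28 positive and 138 of 162 negative members, beside 18.1% of all tested genes, but the members were chosen on those strata together. With each library left out in turn, 5 positive and 36 negative members stayed past 0.7 every time, and 17 and 124 stayed past 0.6. Without control clones 7 and 10, an alternative chosen after the data were seen, every member kept its sign, yet 3 positive and 15 negative members stayed past 0.7. Selecting anew without them gave 64 genes, of which 18 were among the 190, 9.47% of the members and 28.1% of the new selection.

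The 6 knockout libraries outside the rule gave a view of the same measure in other data, over a narrow range of Aqp2. Aqp2 residuals ran from -0.14 to 0.23 in ATF1/CREB1-KO and from -0.03 to 0.05 in ATF1/CREB1/CREM-KO, and 95.6% of their sum of squares was in ATF1/CREB1-KO. Over these 6 libraries, r was positive for 19 of 28 positive members (67.9%) and for 40 of 162 negative members (24.7%), beside 39.7% of all tested genes. Of the 12 named positive members, Gas5 (0.68), Adgrg3 (0.51), Gm32856 (0.47), Fam3d (0.46), Klhl22 (0.45) and Bex3 (0.30) kept their sign. Slc25a39 (-0.55), Itpa-ps1 (-0.47), Akr1c19 (-0.25), Nedd4l (-0.12), Gmds (-0.05) and Osgin1 (-0.01) did not. Tfcp2l1 (0.495) kept its sign and Cebpd (-0.17) did not. Of the 12 named negative members, Med14 (0.35), Abi2 (0.11) and Wdr7 (0.07) turned positive. The others stayed negative, from Prpf6 (-0.25) to Pask (-0.80). In ATF1/CREB1-KO 1, the library of the 3 with the most Aqp2, ribosomal protein genes took 12.8% of TPM and the proliferation list had a mean of 4.81 log2(TPM + 1), against 12.3% and 5.35 in replicate 2 and 6.88% and 6.215 in replicate 3. The part of these measures in the held-out correlations was not tested.

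The gene lists of the pathway and of the cell types show where the 190 fell. Of 22 principal cell genes, 17 were tested, 14 had a positive r and the median was 0.26, against a median of -0.13 and 35.3% positive over all tested genes. Tfcp2l1 was the only member among them. Fxyd4, a regulator of the sodium pump, followed with an r of 0.64, Scnn1g, the gamma subunit of the epithelial sodium channel, with 0.60, and Avpr2, the vasopressin V2 receptor gene, with 0.52. Scnn1g was at 1.95, 0.99 and 3.99 TPM in control clones 6 to 8 and at 26.4, 10.2 and 26.0 TPM in control clones 9 to 11, while ATF1-KO 1 had 3.48 TPM against 12.53 to 23.5 in the other ATF1-KO libraries. Fxyd4 spanned 228 to 852 TPM in control clones 1 to 5, where clone 1 was highest and clone 4 lowest.

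None of the 25 tested vasopressin and cyclic AMP pathway genes was a member. With 1.8% members over all tested genes, lists of this size, here and below, are too short to show a lack. Of the 25, 13 had a positive and 12 a negative r, with a median of 0.025. Over all tested genes, 35.3% were positive and the median was -0.13, the background for all lists below. Creb1 (-0.62), Sik1 (0.57), a salt-inducible kinase gene that is itself induced by cyclic AMP, and Prkar1a (-0.53), a regulatory subunit of protein kinase A, had the largest values. Of 17 tested cyclic AMP target genes, 8 had a positive r with a median of -0.01, and Sik1, the clock gene Per1 (0.53) and Ptgs2 (0.48), the cyclooxygenase-2 gene, led. Of 23 tested genes of aquaporin-2 trafficking, 9 were positive, and after Nedd4l the largest values were those of Nedd4 (-0.57) and Stub1 (-0.49), both ubiquitin ligase genes. Of 19 tested collecting duct transcription factors, 13 were positive with a median of 0.15, and Foxa1 (-0.51) and Mef2d (0.50) came after Tfcp2l1.

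Of 20 proliferation genes, all tested, 19 had a negative r with a median of -0.435, and Aurkb (-0.81), the kinase of the chromosomal passenger complex, and Bub1 (-0.72), a spindle checkpoint kinase gene, were negative members. Aurkb was at 129, 134, 159, 179 and 144 TPM in control clones 1 to 5, at 142 to 171 TPM in ATF1-KO, at 13.9, 21.2 and 12.3 TPM in control clones 6 to 8 and at 97.2, 144 and 105 TPM in control clones 9 to 11. Clones 4, 7 and 10, the lowest of their strata for Aqp2, had the most Aurkb. In the 6 held-out libraries, 0 of 20 proliferation genes had a positive r, with a median of -0.65, beside 39.7% and -0.18 over all tested genes. These values rest mainly on the 3 ATF1/CREB1-KO libraries, which held 95.6% of the Aqp2 sum of squares there. Their list means were 4.81, 5.35 and 6.215 log2(TPM + 1). Without clones 7 and 10 the list's median over the 14 other libraries was -0.17, beside -0.03 for all genes.

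Of 11 tested glycolysis and hypoxia genes, 9 were negative with a median of -0.43, and Hk2 (-0.56) and Ldha (-0.54), genes of hexokinase and lactate dehydrogenase, led. This list had a median of -0.66 in the control clones and 0.135 in ATF1-KO, and the difference was not tested. Of the remaining lists, stress response (12 tested, median 0.18, led by Sesn2 at 0.54), cholesterol synthesis (15, median 0.115, led by Lss at 0.45), epithelial junctions (17, -0.01, Cldn7 at -0.66), steroid-responsive genes (15, -0.10, Zbtb16 at -0.55 after Nedd4l), interferon response (12, -0.19, Oasl2 at -0.46), osmotic response (7, 0.01, Nfat5 at -0.52) and mesenchymal genes (9, 0.03, Lgals1 at -0.59) held no member beyond Nedd4l.

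**Figure D4:**
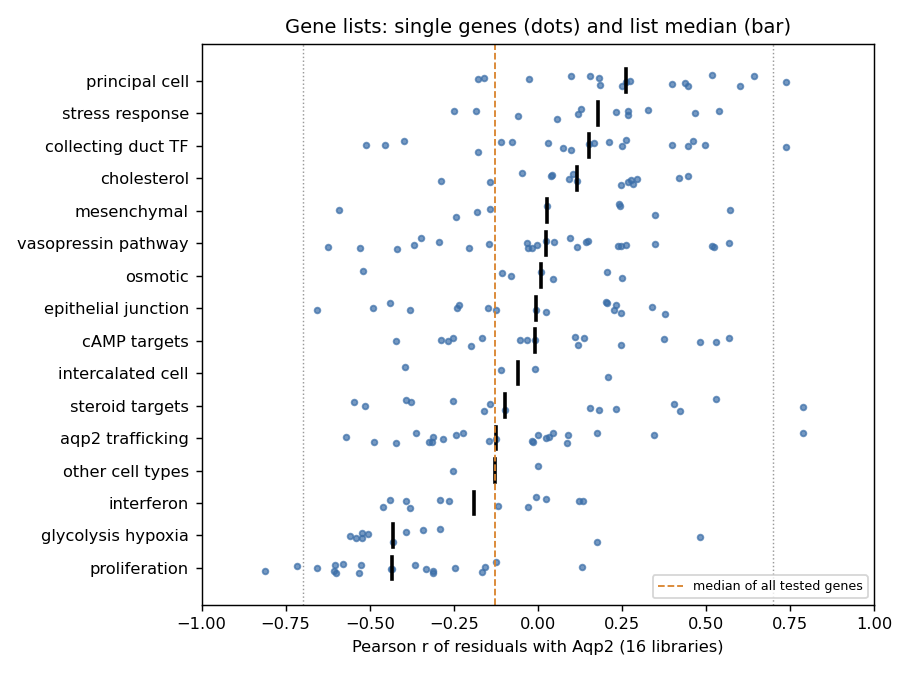
Pearson r with Aqp2 (horizontal axis) of each tested gene (dots) of 16 gene lists (rows), with the list median as a bar; the dashed line is the median of all tested genes (-0.13) and dotted lines mark -0.7 and 0.7. The proliferation list (median -0.435) lies to the left of the principal cell list (median 0.26).

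The libraries were checked for their labelled cell type and for other cells. The 22 principal cell genes summed to 8615 to 12324 TPM in the strata other than control clones 6 to 8, and to 4025 to 5091 TPM there. Of these 22 genes, 17 had a mean of at least 5 TPM and 4 had a mean under 1 TPM. Of 18 intercalated cell genes, 12 had a mean under 1 TPM and 3 were at 0 in all 16 libraries; the sum was 29.7 to 174 TPM. Of 19 genes of other kidney, vascular, stromal and immune cells, 17 had a mean under 1 TPM and 5 were at 0 throughout, with a sum of 9.11 to 28.3 TPM. No gene of either list was a member, but only 4 intercalated genes and 2 of the others passed the filter of 5 TPM and could be. The 4 were Atp6v1b1 (mean 38.0 TPM), Rhcg (13.6 TPM, from 0.11 to 108), Aqp6 (9.22 TPM) and Dmrt2 (5.36 TPM). The 2 others were Lrp2 (10.7 TPM) and Cd68 (7.43 TPM). In bulk libraries, fewer cells with Aqp2 and less Aqp2 transcript per cell cannot be told apart.

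Of 7 measures of library composition, the ribosomal protein share passed adjustment on Spearman's rho and none passed on Pearson's r. Their part in the members was not tested. The share of TPM in 76 ribosomal protein genes was 14.0% to 14.8% in control clones 6 to 8 and 2.56% to 3.96% in the other libraries of the rule. Its residuals had a Pearson r of 0.505 with those of Aqp2 (two-sided permutation within strata, p = 0.0305, adjusted 0.126 over 7 measures) and a Spearman rho of 0.69 (permutation p = 0.00566, adjusted 0.0396). Without the 2 libraries farthest in Aqp2, r was 0.44. The mean level of the proliferation list had an r of -0.59 (permutation p = 0.036, adjusted 0.126) and a rho of -0.65 (p = 0.0244, adjusted 0.0854 by permutation), and r was -0.21 without those 2. The share of the 50 highest genes had an r of 0.55 (permutation p = 0.0543, adjusted 0.127), which was 0.12 without them. The mitochondrial share (r = -0.055), the number of genes above 0 (-0.28) and the intercalated (-0.04) and mesenchymal (0.12) lists had adjusted permutation p-values of 0.334 to 0.885. Without those 2 libraries, r was 0.46 for the intercalated list, with the sign turned, and it was -0.32 in the control clones alone. Strata of 3 to 5 libraries are too small for a correlation within each. With the ribosomal protein share as a covariate, 80 genes passed the rule, 36 of them members, which is 18.9% of the members. Ribosomal protein genes themselves had a median r of 0.25, 72 of 76 positive, beside -0.13 and 35.3% over all tested genes. None was a member, beside 1.8% of all tested genes.

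Position on the chromosome was noted as a further shared feature. On chromosome 15, the third gene after Aqp2 in the order of tested genes was Racgap1 (r = -0.74), a negative member, while the adjacent aquaporin genes Aqp5 (0.13) and Aqp6 (-0.39) were not. Chromosome 15 held 17 negative and 0 positive members, 4.08% of its 417 tested genes, chromosome 11 held 2 positive and 29 negative (3.52%), chromosome 18 held 2 and 9 (4.37%), and chromosome 10 held 0 among 498. These are counts against 1.8% over all tested genes, with no test.

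The labels' knockout comparisons ask whether the members change when CREB family factors are lost. They use differences of means, which the residuals of the rule do not contain. Yet control clones 6 to 8 and 9 to 11 also served to choose members, as did all libraries on both sides of the ATF1-KO comparison. The spread within these groups was therefore part of the choice. In ATF1/CREB1/CREM-KO against control clones 9 to 11, limma called 10.3% of 10560 genes at an adjusted p under 0.05, 6.19% lower and 4.1% higher. Of 28 positive members 5 were lower and 1 higher (21.4% called). Of 162 negative members 8 were lower and 1 higher (5.56% called). Under median-ratio scaling of the same members, 4 positive members were lower and 1 higher, and 7 negative members were lower and 4 higher. The median log2 change was 0.06 for positive and -0.07 for negative members, beside -0.05 for all. The 5 positive members called lower became 0 without control clone 9, 1 without control clone 11 or knockout replicate 2 or 3, and 3 without control clone 10. The 8 negative members called lower became 16 without knockout replicate 1 and 2 to 4 without each of the other 5 libraries. The 1 negative member called higher became 10 without knockout replicate 1 and 0 without control clone 9 or 11 or knockout replicate 2 or 3.

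Cebpd fell with Aqp2 in ATF1/CREB1/CREM-KO. It was at 25.8, 6.86 and 30.0 TPM in control clones 9 to 11 and at 1.36, 3.50 and 2.67 TPM in the knockout, without overlap, a log2 change of -2.46 ± 0.56 (SE; limma adjusted p = 0.045). The other called positive members were Gm43823, a predicted gene (-1.04), Dnajb2, a chaperone gene (-0.95), Fam3d (-0.88 ± 0.155, adjusted p = 0.0229) and Gas5 (-0.83 ± 0.11, adjusted p = 0.00982). Gas5 was at 253, 225 and 288 TPM in the control clones and at 134, 151 and 144 TPM in the knockout, without overlap. Slc25a39 rose, from 287, 271 and 299 TPM to 370, 408 and 417 TPM, a log2 change of 0.48 ± 0.08 (adjusted p = 0.018). Tfcp2l1 (0.50, adjusted p = 0.131) and Nedd4l (0.39, adjusted p = 0.366) did not pass the test.

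Among negative members, Glod4, a glyoxalase domain gene, fell by 2.67 ± 0.18 on the log2 scale (limma adjusted p = 0.0013), from 131, 173 and 121 TPM to 17.7, 21.4 and 25.02 TPM. Guk1, the guanylate kinase gene, fell by 1.97 ± 0.40 (adjusted p = 0.033), from 83.7, 97.8 and 82.8 TPM to 10.65, 31.45 and 29.65 TPM. The transcript 9530068E07Rik fell by 1.60 ± 0.16 (adjusted p = 0.00469). These genes had the opposite sign to Aqp2 between clones and the same direction as Aqp2 in the knockout. They were named for the size of their change, and 4.94% of negative members were called lower, beside 6.19% of all genes. Glod4, Guk1 and 9530068E07Rik lie on chromosome 11, as does Spag7, and the part of this location was not tested. The kinetochore gene Spc24 (-0.845) and the replication genes Dscc1 (-0.80) and Prim2 (-0.54), with Spag7 (-0.635) and Zcrb1 (-0.48), were lower too, and Atg4c, an autophagy protease gene, was higher (0.54 ± 0.12, adjusted p = 0.0407). None of the 20 proliferation genes of the list was called.

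**Figure D5:**
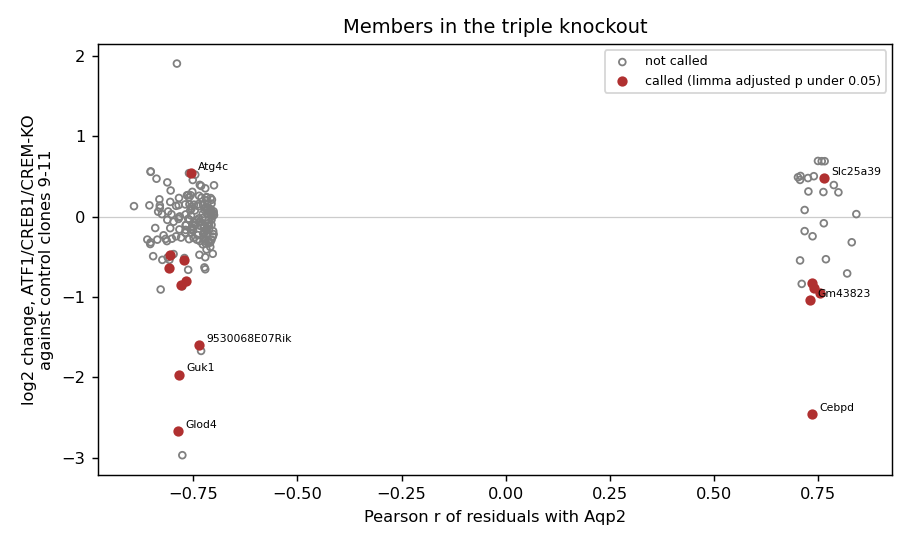
Log2 change in ATF1/CREB1/CREM-KO against control clones 9 to 11 (vertical axis) of the 190 members against their r with Aqp2 (horizontal axis); filled points passed a limma adjusted p under 0.05, and of these, the genes that rose or that fell by more than 1 are named. Of the 28 positive members on the right, 5 were lower and 1 higher, and of the 162 negative members on the left, 8 were lower and 1 higher.

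In ATF1/CREB1-KO against control clones 6 to 8, limma called 0.00947% of 10560 genes, 1 gene, and 0 members. At an unadjusted p under 0.05, in either direction, there were 10 of 28 positive members and 8 of 162 negative members, beside 1013 of all genes (9.59%). Of the 28 positive members, 13 had a negative and 15 a positive change, with a median of 0.09. Of the 162 negative members, 97 had a negative and 65 a positive change, with a median of -0.11. Glod4 (-1.83 ± 0.585, adjusted p = 0.425), Cebpd (-1.97 ± 0.43, adjusted p = 0.275) and Guk1 (-1.705 ± 0.41, adjusted p = 0.318) had negative changes that did not pass. The positive members Blnk (1.22 ± 0.305, adjusted p = 0.322), Abhd14b (1.25 ± 0.326, adjusted p = 0.332) and Akr1c19 (1.44 ± 0.452, adjusted p = 0.423) had positive changes that did not pass. In ATF1-KO against control clones 1 to 5, limma called 0% of genes and 0 members. Unadjusted p-values under 0.05 were found for 3 positive and 9 negative members, beside 834 of all genes (7.9%). Cebpd had a log2 change of -0.30 ± 0.38 there (adjusted p = 0.863). A difference of slope on Aqp2 between ATF1-KO and control clones was called by limma for 0 of 10559 genes, the lowest adjusted p being 0.0841. Before adjustment, 145 genes had a p under 0.05.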

How the data were processed

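RNA of mpkCCD cells was amplified with a SMARTer kit and sequenced from Nextera XT libraries, per the labels' protocols. The deposited table holds TPM, computed by the authors. STAR and RSEM are named in the submitters' processing notes, and their versions, the genome build and the annotation are not given in the sources used here. TPM sums to the same total in each library, so a rise in abundant genes lowers all others, and depth is unknown. Of 1399 genes with no name in the table, 50 were named from GENCODE M21. The 18 samples of the rescue experiment were not analysed here.

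Analyses used log2(TPM + 1). Residuals within 4 strata of label and run of library numbers were correlated with those of Aqp2. A limit of 0.8 gave 36 genes, under the 40 required, so 0.7 was used. Knockouts were compared with control clones of the same run by limma 3.58.1 in R 4.3.3 (eBayes with trend), with Benjamini-Hochberg adjustment over all genes of the filter and a threshold of 0.05. The limma p-values set a difference or slope against the spread between libraries, which may be technical. They may not cover the spread between independent clones. Library measures were tested with 100000 permutations within strata. Named genes were Aqp2, the 12 members of each sign with the largest smallest |r| over 16 recalculations that each left out 1 library, the leading genes of each list, the called members with the largest change in ATF1/CREB1/CREM-KO (up to 5 in each direction), and the genes at the limit; other genes were named after their values were seen. The members and gene lists were chosen with earlier results of these data known. Fits were tested on simulated data. Alternatives were another pseudocount (0.1), scaling, filter, correlation, choice of libraries and a covariate.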

Additional observations from a re-analysis of the deposited data

Results flagged for a closer look

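In 3 of the 56 groups of 4 to 10 libraries examined, 1 library stood far from the rest by Dixon's criterion, which chance meets in about 1 in 20 groups. Nedd4l in control clones 1 to 5 was at 99.5 TPM in clone 4, against 127 to 133 TPM in the others. The number of genes above 0 in control clones 1 to 5 was 17296 in clone 3, against 19170 to 19878 in the others. The number of genes above 0 in ATF1-KO was 20703 in replicate 4, against 19605 to 19650 in the others.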

How the results depend on the processing

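The number of members depended on the processing, and the cause was not tested. Against 28 positive and 162 negative members, median-ratio scaling gave 82 and 63, and the 11 control clones alone gave 118 and 536. Negative members numbered 99 without control clones 6 to 8 and 55 with the ribosomal protein share as a covariate. Without control clones 7 and 10, an alternative chosen after seeing the data, there were 16 and 48. With 1 library left out, positive members numbered 9 (without control clone 10) to 64 (without clone 1) and negative members 77 (without clone 7) to 323 (without clone 1), and the slope fit called 0 to 1 genes (1 without clone 1). Leaving out clone 3, clone 4 or ATF1-KO 1 also raised both counts over 1.5 times, clone 2 raised the positive count (45), clone 11 lowered it (18), and ATF1-KO 4 raised the negative count (263). In ATF1/CREB1/CREM-KO, with members selected anew, positive members called lower numbered 2 at a minimum of 1 TPM and 3 at 20 TPM, those called higher 2 under median-ratio scaling, negative members called lower 2 under median-ratio scaling, and negative members called higher 2 with a pseudocount of 0.1 and 0 at 20 TPM. With the members kept and 1 library left out, these 4 counts ranged from 0 to 7, 0 to 2, 2 to 16 and 0 to 10; the lowest were without control clone 9 and the highest without ATF1/CREB1/CREM-KO 1, and leaving out any of the other 4 libraries also lowered at least 3 of them over 1.5 times. Members called in ATF1/CREB1-KO ranged from 0 to 1 (1 without replicate 3) and in ATF1-KO from 0 to 0. No value of the 24 named genes changed sign in 600 recalculations, but most of this was fixed in advance. The genes were picked for a large |r| in the 16 recalculations that each left out 1 library. Another filter leaves the r of a gene unchanged. ATF1-KO and control clones share replicate numbers 1 to 5, but deviations of same-numbered libraries correlated between -0.13 and 0.134, so the numbers were not taken as pairs; a fit with the replicate number as a block called 0 members. TPM gives no depth, so which low values are limited by counting is unknown.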
